A study of Mus musculus with 2 samples.

Results

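The sites described here are the strongest accessible regions away from protein-coding promoters in the hippocampus of the mouse. They were chosen by their values: the 2 libraries' longer peak lists were merged into 138441 regions, each library's highest peak value was taken in each region, and a region was kept where it lay over 1 kb from every transcription start site (TSS) of a protein-coding transcript and had a value of 3 or more in both libraries. Of 110933 distal regions 731, or 0.659%, met this rule, out of 40544 distal regions with a peak in both libraries. Of the 731, 38 were repeated sequence, where 25% or more of the words of 31 bases in the region have a further copy in the assembly, and are given apart. The other 693 sites of unique sequence are compared below with the 39119 other distal regions of unique sequence that had a peak in both libraries and a value under 3 in at least 1. They are also compared with 5244 promoter regions of unique sequence, within 1 kb of a protein-coding TSS, that had a value of 3 or more in both libraries.

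DNase-seq maps where the nuclease DNase I can reach and cut the DNA, as sequenced cut ends. The tissue was hippocampus, which a further label calls a layer of it, from female B6CASTF1/J mice, first-generation hybrids of C57BL/6J and CAST/EiJ, at 2 months of age. There was 1 group with no treatment named, of 2 libraries labelled biological replicates 1 and 2. Both carry 1 donor record and separate biosample records, so the spread between them may be technical, and no test across libraries was made. Of the marker genes checked against the label, all 14 genes of a forebrain glutamatergic list had a promoter peak in both libraries, against 7 of 10 astrocyte, 5 of 10 oligodendrocyte, 3 of 10 interneuron, 2 of 10 microglia, 0 of 10 endothelial and 0 of 10 hepatocyte genes. Lists of other kinds had 14 of 14 (housekeeping), 17 of 17 (activity-regulated), 17 of 18 (synaptic adhesion and scaffold) and 0 of 16 (Hox). A full list is therefore not particular to glutamatergic genes, and the share over all coding genes was not counted.

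Distal accessible regions are mostly known as enhancers, where sequence-specific factors displace nucleosomes and act on promoters at a distance, and as sites of CTCF, the zinc-finger protein that anchors chromatin loops. Promoters of broadly used genes lie in stretches rich in the dinucleotide CpG and hold sites of SP and KLF proteins (the GC box), NRF1, ETS and CREB factors. Transfer RNA (tRNA) genes are read by RNA polymerase III from promoter elements inside the gene, the A box and the B box.

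The sequences below were read from the RefSeq assembly GRCm38.p6 (mm10), plus strand, and show the kinds of site that the results turn on. Capitals mark exact matches, on either strand, to any of the 20 motifs searched, whose letters are given with the motif results. The first 3 stand for sites of CpG-rich sequence. The Zfp239 site (chr6:117879441-117879740) holds an NRF1 match. The Nacc2 site (chr2:26140401-26140700), which overlaps the start of the noncoding gene Tmem250-ps, holds CRE and NRF1 matches. The Ccne1 site (chr7:38084881-38085180) holds a CTCF match, an EGR match and 6 GC boxes.

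Zfp239 site: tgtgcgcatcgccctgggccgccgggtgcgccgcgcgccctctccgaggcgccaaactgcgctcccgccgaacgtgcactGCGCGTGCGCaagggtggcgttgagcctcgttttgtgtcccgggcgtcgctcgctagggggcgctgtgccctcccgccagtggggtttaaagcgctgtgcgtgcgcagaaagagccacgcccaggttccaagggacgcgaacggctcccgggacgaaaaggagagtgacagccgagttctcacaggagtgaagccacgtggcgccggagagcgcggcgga
Nacc2 site: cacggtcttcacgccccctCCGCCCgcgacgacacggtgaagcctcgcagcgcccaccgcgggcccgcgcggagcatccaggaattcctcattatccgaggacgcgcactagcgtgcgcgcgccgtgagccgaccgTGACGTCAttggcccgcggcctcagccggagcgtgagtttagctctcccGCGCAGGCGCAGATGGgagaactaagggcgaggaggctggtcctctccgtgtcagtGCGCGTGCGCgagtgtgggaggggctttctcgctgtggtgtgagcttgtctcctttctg
Ccne1 site: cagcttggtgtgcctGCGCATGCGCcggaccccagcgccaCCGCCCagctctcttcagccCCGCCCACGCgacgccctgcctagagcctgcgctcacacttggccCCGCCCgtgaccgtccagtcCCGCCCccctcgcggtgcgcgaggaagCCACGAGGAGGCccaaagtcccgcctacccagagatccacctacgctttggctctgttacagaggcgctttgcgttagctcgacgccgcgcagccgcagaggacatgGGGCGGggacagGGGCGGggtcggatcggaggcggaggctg

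The next pair stand for a CTCF match near the middle of a site, at the Chd2 site (chr7:73618401-73618680), and for a CRE match, the site of CREB and ATF proteins, at the Mir132 site (chr11:75173551-75173850, the middle 300 bases of a 360 bp region). The Mir132 site overlaps the gene of the microRNA miR-132, known as a target of CREB in neurons.

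Chd2 site: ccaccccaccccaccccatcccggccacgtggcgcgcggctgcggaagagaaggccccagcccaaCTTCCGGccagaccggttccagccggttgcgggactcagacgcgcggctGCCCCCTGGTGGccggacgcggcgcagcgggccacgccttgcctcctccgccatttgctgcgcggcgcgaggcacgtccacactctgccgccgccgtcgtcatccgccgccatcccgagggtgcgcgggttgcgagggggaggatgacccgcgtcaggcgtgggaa
Mir132 site: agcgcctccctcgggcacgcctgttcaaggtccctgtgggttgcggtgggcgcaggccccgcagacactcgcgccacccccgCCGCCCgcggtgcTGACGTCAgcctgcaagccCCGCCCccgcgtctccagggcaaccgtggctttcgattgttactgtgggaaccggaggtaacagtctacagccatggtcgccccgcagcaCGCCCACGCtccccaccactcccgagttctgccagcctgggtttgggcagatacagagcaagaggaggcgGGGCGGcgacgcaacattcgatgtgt

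A further pair contain a tRNA gene each, with the B box in capitals near the end of the printed run: an arginine tRNA gene (chr11:107012661-107012940) and a threonine tRNA gene (chr11:79704481-79704740). In the arginine site the capitals run on from the B box into an overlapping E-box match of the NEUROD kind (CCATCTG).

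tRNA-Arg site: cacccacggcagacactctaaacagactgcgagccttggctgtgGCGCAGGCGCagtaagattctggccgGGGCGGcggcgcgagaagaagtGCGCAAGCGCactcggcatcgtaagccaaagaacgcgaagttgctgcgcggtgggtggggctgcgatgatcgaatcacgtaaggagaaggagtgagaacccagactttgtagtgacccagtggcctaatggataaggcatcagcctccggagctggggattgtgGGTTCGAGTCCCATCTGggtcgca
tRNA-Thr site: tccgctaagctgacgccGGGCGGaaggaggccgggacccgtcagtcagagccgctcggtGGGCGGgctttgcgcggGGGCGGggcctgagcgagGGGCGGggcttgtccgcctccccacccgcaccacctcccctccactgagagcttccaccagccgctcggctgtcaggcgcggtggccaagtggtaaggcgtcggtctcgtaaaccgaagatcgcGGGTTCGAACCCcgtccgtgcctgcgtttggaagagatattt

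The last 4 lie near neuronal or activity-regulated genes or in a tested enhancer. The Fosb site (chr7:19320041-19320260) and the Tob1 site (chr11:94160501-94160780), with an RFX match, overlap enhancers of the VISTA collection. The Slc17a7 site (chr7:45162101-45162400, the middle of a 460 bp region) holds a CTCF match and an E-box of the NEUROD kind, and the Junb site (chr8:84979921-84980160) holds a MEF2 match.

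Fosb site: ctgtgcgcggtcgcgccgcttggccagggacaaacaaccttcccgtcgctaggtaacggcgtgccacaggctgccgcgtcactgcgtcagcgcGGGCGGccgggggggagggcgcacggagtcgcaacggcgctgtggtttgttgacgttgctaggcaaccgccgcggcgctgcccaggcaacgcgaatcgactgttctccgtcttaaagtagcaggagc
Tob1 site: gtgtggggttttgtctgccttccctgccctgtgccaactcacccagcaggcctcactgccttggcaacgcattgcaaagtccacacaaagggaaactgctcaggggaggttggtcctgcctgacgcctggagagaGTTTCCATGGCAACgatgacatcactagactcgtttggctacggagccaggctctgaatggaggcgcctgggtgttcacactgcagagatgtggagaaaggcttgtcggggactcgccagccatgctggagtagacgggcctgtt
Slc17a7 site: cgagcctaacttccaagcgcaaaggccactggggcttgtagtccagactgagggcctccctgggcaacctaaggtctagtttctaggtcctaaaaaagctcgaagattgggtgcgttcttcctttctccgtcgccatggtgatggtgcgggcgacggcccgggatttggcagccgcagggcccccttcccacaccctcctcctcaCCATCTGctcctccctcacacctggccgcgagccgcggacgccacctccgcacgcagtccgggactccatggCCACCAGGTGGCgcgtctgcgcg
Junb site: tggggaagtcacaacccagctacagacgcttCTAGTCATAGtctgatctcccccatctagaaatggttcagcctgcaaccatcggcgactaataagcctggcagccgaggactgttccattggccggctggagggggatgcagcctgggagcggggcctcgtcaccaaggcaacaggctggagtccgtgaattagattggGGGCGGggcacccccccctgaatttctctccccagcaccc

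Values of the unique sites ran from 3.01 to 23.1 in replicate 1, with a median of 4.70, and from 3.003 to 32.4 in replicate 2, with a median of 3.78. These values chose the sites and are given as a description. The value is the authors' signal, a whole multiple of 1 step in each library, and a value of 3 was 339 steps in replicate 1 and 291 in replicate 2. If a step is 1 tag, counting alone gives an error of 5.43% and 5.86% at the threshold; the scale of the value is not stated. Most sites were close to the threshold: 113 of the 693 had 5 or more in both libraries and 2 had 10 or more. Of the 693, 579 were higher in replicate 1, and the ratio of replicate 2 to replicate 1 had a median of 0.816 and a range of 0.368 to 1.499. Other shared distal regions had a median ratio of 0.827 and promoters at the same threshold 0.734. The threshold of 3 was passed by 1792 distal regions in replicate 1 and 836 in replicate 2, so 1061 were left out for replicate 2 alone and 105 for replicate 1 alone. All 731 sites also stood in both libraries' shorter peak lists.

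**Figure D1:**
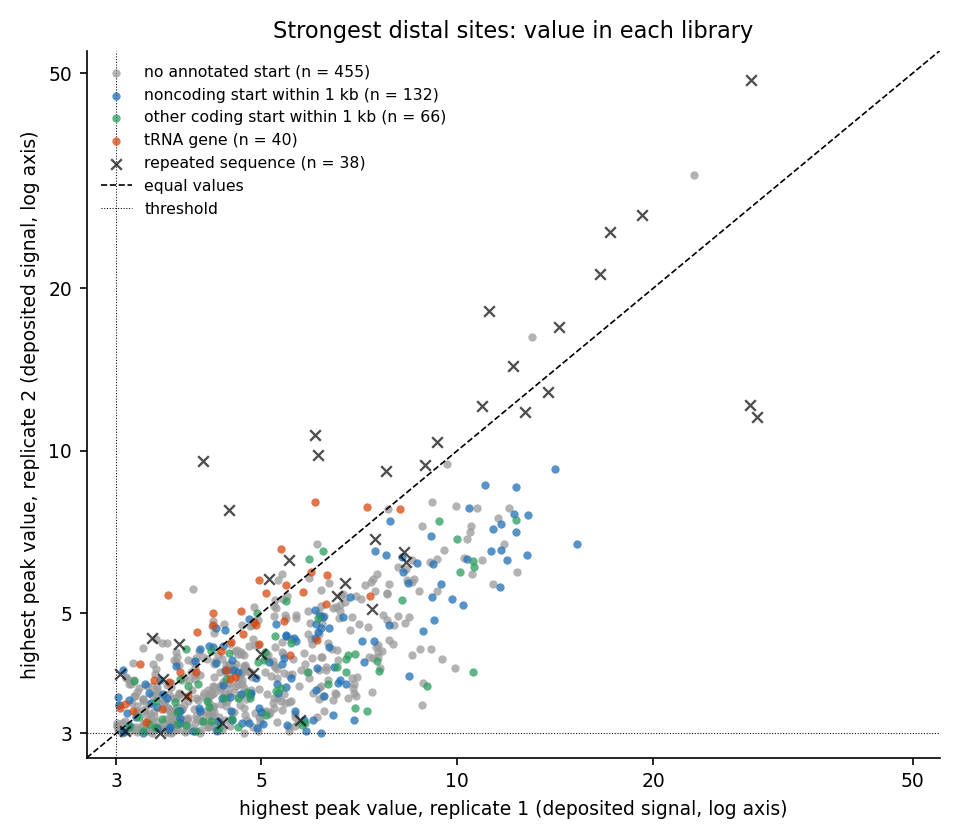
Highest peak value of each of the 731 sites in replicate 1 (x axis) and replicate 2 (y axis), both on log axes in units of the deposited signal, with 1 point per site coloured by what the annotation holds there. Most of the unique sites lie below the dashed line of equal values (579 of 693 are higher in replicate 1), sites with a tRNA gene lie along it, and 2 unique sites stand above 10 in both libraries.

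The strongest unique sites were of 2 kinds. The highest pair lay in UTRs and were not CpG-rich: chr15:99735641-99735920, in Cers5, a ceramide synthase gene, had 23.1 in replicate 1 and 32.4 in replicate 2, and chr13:58177601-58177820, in Ubqln1, a ubiquilin gene of protein quality control, had 13.0 and 16.2. Both were higher in replicate 2, by 1.40 and 1.25 times. No second copy of either was found in the assembled chromosomes by BLAST at 80% identity over 50% of the length. The other 10 of the highest 12 were rich in GC, with 59.5% to 72.5% GC in the middle 200 bp. At the start of the noncoding gene 6720427I07Rik, chr13:48546461-48546800, the values were 14.1 and 9.27. At chr7:34234041-34234320, near Gpi1, an enzyme of glycolysis, and at the start of the noncoding gene Gm12762, they were 11.0 and 8.66. In an intron of Nr1d1, a repressor of the circadian clock, chr11:98773861-98774200 had 12.03 and 7.84, 1133 bp from the TSS. The Zfp239 site had 9.15 and 8.05, the Nacc2 site had 10.4 and 7.84, and a site 52.0 kb from Wnt7b, a signalling ligand gene, had 10.7 and 7.82 at chr15:85634481-85634840. The Nacc2 site overlapped the start of the noncoding gene Tmem250-ps, 17.6 kb from the nearest protein-coding TSS. It also lay within 1 kb of a Tmem250-ps start that only a noncoding transcript or a RefSeq mRNA gives.

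The sites were CpG-rich far more often than other distal regions. In the middle 200 bp, 47.5% of the 693 sites (95% Wilson interval 43.8 to 51.2) had a GC content of 50% or more and a CpG ratio, observed over expected, of 0.6 or more, against a background of 6.01% of the other shared distal regions. The difference was 41.5 percentage points (95% Newcombe interval 37.8 to 45.2). Median GC was 59.5% against 50.5%, and the median CpG ratio was 0.587 against 0.261. Promoters at the same threshold went further, with 92.1% CpG-rich windows, and sites minus promoters gave -44.6 points (-48.4 to -40.8). Among the 455 sites with no annotated start or tRNA gene nearby, 36.7% were CpG-rich, against 4.65% of other regions of that kind, a difference of 32.1 points (27.7 to 36.6). Regions are the units of these intervals, not animals, and the intervals cover counting error only. GC content moved with the value, and its part in the values was not tested.

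The GC box, NRF1, CRE, ETS, EGR and GFY motifs were more frequent in the sites than in other shared distal regions. Each motif was searched as exact letters on both strands of the middle 200 bp, and the share of other shared distal regions with a match is the background. The GC box of SP and KLF factors (GGGCGG) was in 37.5% of sites (34.0 to 41.2) against 8.66%, a difference of 28.9 points (25.3 to 32.5). NRF1, a regulator of nuclear genes for mitochondria (GCGC, any base, TGCGC), matched in 6.93% against 0.383%, a difference of 6.54 points (4.88 to 8.68). The CRE (TGACGTCA) matched in 3.75% against 0.335%, a difference of 3.42 points (2.24 to 5.11), and the ETS site (CCGGAAG) in 6.06% against 1.39%, a difference of 4.67 points (3.12 to 6.70). EGR, the zinc-finger family of Egr1 (GCGTGGGCG), matched in 1.44% against 0.184% (difference 1.26 points, 0.5999 to 2.45), and the GFY element of promoters (ACTACANNTCC) in 2.31% against 0.266% (difference 2.04 points, 1.16 to 3.45). An EGR match can share bases with a GC box, and some NRF1 matches are matches on both strands. With sites taken at 5 or more the GFY interval reached 0 (difference 0.585 points, -0.146 to 4.54). EGR and GFY were not compared within CpG-rich windows alone. All 4 of the GC box, NRF1, CRE and ETS motifs were also more frequent than in other regions when CpG-rich windows were compared with CpG-rich windows: the GC box in 56.5% (51.1 to 61.8) of 329 against 35.1% (33.2 to 37.1) of 2350, NRF1 in 13.1% (9.85 to 17.1) against 4.30% (3.55 to 5.19), CRE in 5.47% (3.49 to 8.48) against 1.23% (0.861 to 1.77) and ETS in 10.03% (7.23 to 13.8) against 4.26% (3.51 to 5.15).

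The E-box, AP-1, MEF2, SOX and homeodomain motifs were less frequent in the sites than in other shared distal regions. The E-box of NEUROD-type factors, which drive neuronal differentiation (CCATCTG), matched in 10.5% of sites (8.46 to 13.0) against 18.4%, a difference of -7.86 points (-9.97 to -5.33). AP-1, bound by Fos and Jun dimers (TGANTCA), matched in 6.93% against 10.3% (difference -3.39 points, -5.08 to -1.23). MEF2 (CTANNNNTAG) matched in 1.15% against 2.94% (-1.78 points, -2.38 to -0.664), SOX (CCATTGT) in 1.15% against 2.48% (-1.33 points, -1.92 to -0.211) and the homeodomain letters TAATTA in 1.59% against 4.46% (-2.88 points, -3.61 to -1.63). The lower share of AP-1 letters was not separated from 0 among sites with no annotated start or tRNA gene (8.79% against 10.5%, difference -1.74 points, -4.03 to 1.24). The SOX interval also reached 0 under 6 of 18 alternatives. Compared within 1 kind of sequence, most of these differences were smaller. Among windows that were not CpG-rich the E-box was in 16.8% of sites (13.3 to 20.9) against 19.1%, AP-1 in 8.24% (5.83 to 11.5) against 10.6% and MEF2 in 1.65% (0.758 to 3.55) against 3.04%, and each share of other regions lay inside the sites' interval. Among CpG-rich windows the E-box was in 3.65% (2.10 to 6.27) against 7.57% (6.57 to 8.71), AP-1 in 5.47% (3.49 to 8.48) against 5.83% and MEF2 in 0.608% (0.167 to 2.19) against 1.404%. SOX and homeodomain letters were not compared in this way. Promoters at the same threshold held fewer matches than the sites for the E-box (1.58%, 8.95 points below the sites, 6.85 to 11.5), AP-1 (1.81%, 5.11 points below, 3.41 to 7.28) and the homeodomain letters (0.305%, 1.28 points below, 0.558 to 2.52). MEF2 was in 1.72% and SOX in 1.09% of promoters, and sites minus promoters gave -0.562 points (-1.25 to 0.590) and 0.0674 points (-0.584 to 1.20).

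The other motifs gave few matches or shares that were not separated from those of other regions. RFX, the X-box of ciliary and neuronal genes (GTT, any base, CCATGG, any base, AAC), matched in 6 sites, 0.866% against 0.371% (difference 0.495 points, 0.0222 to 1.51), and that interval reached 0 under 6 of 18 alternatives. YY1 (AAGATGGC) stood at 1.44% against 1.46% (difference -0.0218 points, -0.691 to 1.18), while 4.94% of promoters had it. The octamer of POU factors (ATGCAAAT) stood at 1.15% against 1.44% and the NR4A site (AAAGGTCA) at 0.289% against 0.406%, with intervals of the difference from -0.864 to 0.830 and from -0.338 to 0.642 points. ZNF143 (CCCANNATGCANNGCG) matched in 1 site, against 0.0128% of other regions. REST, the repressor of neuronal genes (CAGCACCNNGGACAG), and NFI (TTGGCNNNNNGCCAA) had 0 matches in 693 windows, which allows shares up to 0.551%, and their background was 0.0281% and 0.0946%.

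**Figure D2:**
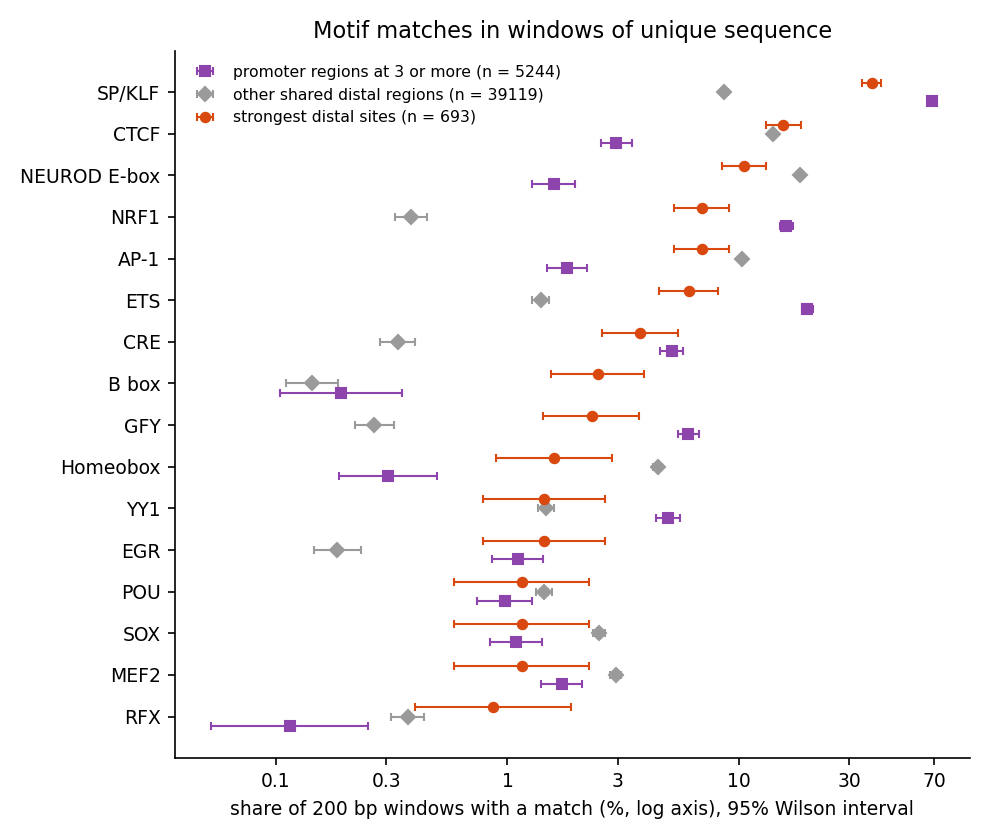
Share of 200 bp windows with a match to each motif found in 5 or more sites (x axis, percent, log axis; bars are 95% Wilson intervals) in the strongest distal sites, in the other shared distal regions and in promoters at the same threshold. For SP/KLF, NRF1, ETS and GFY the distal sites lie between other distal regions and promoters (SP/KLF at 37.5%, between 8.66% and 68.2%), while CTCF, E-box and AP-1 shares are above those of promoters.

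The share of CTCF in the sites as a whole was not separated from that of other regions, and over bins of value it went up and then down. Its letters (CCANNAGNNGGC) matched in 15.6% of sites (13.1 to 18.5) against 14.0% of other shared distal regions, a difference of 1.60 points (-0.938 to 4.51). Over bins of the lower of both libraries' values, CTCF was in 6.29% of regions under 0.5, 12.01% from 0.5 to 1, 20.8% (20.1 to 21.6) from 1 to 2 and 22.7% (20.9 to 24.7) from 2 to 3. It was in 17.2% (14.4 to 20.5) of the 580 sites from 3 to 5 and in 7.08% (3.63 to 13.4) of the 113 sites at 5 or more. CpG-rich windows went from 3.24% in the lowest bin to 18.6% from 2 to 3, 42.6% (38.6 to 46.6) from 3 to 5 and 72.6% (63.7 to 79.9) at 5 or more. The GC box went from 5.03% to 18.6%, 32.1% and 65.5% (56.3 to 73.6) over the same bins, and NRF1 from 0.152% to 1.28%, 4.83% and 17.7% (11.8 to 25.8). The E-box was in 17.5% to 19.97% of regions in the 4 bins under 3 and then stood at 11.2% (8.89 to 14.0) and 7.08% (3.63 to 13.4). The bins rest on the values that chose the sites and are a description. With sites taken at 5 or more the CTCF difference was -6.96 points (-10.4 to -0.676), the opposite sign, and at 2 or more it was 7.22 points (5.66 to 8.87).

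**Figure D3:**
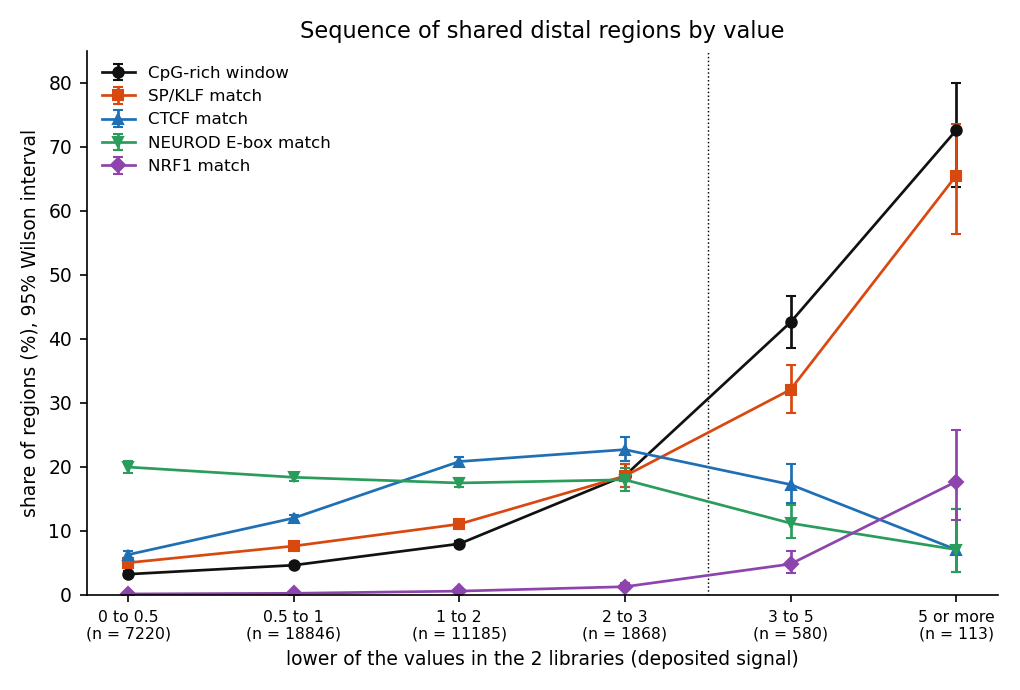
Share of shared distal regions of unique sequence with a CpG-rich window or a motif match (y axis, percent, 95% Wilson intervals) over 6 bins of the lower of the values in the 2 libraries (x axis, deposited signal). To the right of the dotted line are the sites; CpG-rich windows reach 72.6% and SP/KLF matches 65.5% in the last bin, while CTCF peaks at 22.7% from 2 to 3 and is at 7.08% in the last bin.

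CTCF matches were more frequent in the sites that were not CpG-rich than in those that were. Of the 364 sites that were not CpG-rich 21.4% (17.5 to 25.9) had a match, against 14.3% (14.0 to 14.7) of other regions of that kind, and of the 329 CpG-rich sites 9.12% (6.46 to 12.7) had one, against 8.47% (7.41 to 9.66). Among the 455 sites with no annotated start or tRNA gene CTCF was in 19.8% (16.4 to 23.7) against 14.2%, a difference of 5.59 points (2.17 to 9.51). The Chd2 site is 1 of the 30 CpG-rich sites with a CTCF match, with 74% GC in the middle 200 bp. It had values of 7.83 in replicate 1 and 7.80 in replicate 2, and a distance of 76.7 kb from Chd2, a chromatin remodeller gene. The Ccne1 site, CpG-rich as well, had 10.5 and 7.08. A site 1206 bp from Ptma, the prothymosin alpha gene, at chr1:86525281-86525520, was also CpG-rich and had a CTCF match and values of 10.5 and 7.25. Ptma was the nearest gene of 6 sites from chr1:86487361-86487780, with 9.94 and 7.89, to chr1:86532461-86532640, with 3.34 and 3.24, and 3 of the 6 had a CTCF match. No other gene was nearest to more than 3 sites; 577 of 648 nearest genes had 1. Of the 693 unique sites 216, or 31.2% (27.8 to 34.7), were neither CpG-rich nor matched CTCF, the GC box, NRF1, CRE or ETS, against 73.6% of other regions.

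Matches of several motifs were concentrated at the middle of the sites, where the windows were centred on the merged region and not on its highest point. For CTCF 81.4% of 113 matches lay within 50 bp of the middle, at a median distance of 15 bp, and for CRE 84.6% of 26, at a median of 19.5 bp. RFX had a median of 15 bp over 6 matches. GC boxes lay evenly, with 54.7% of 419 matches within 50 bp, as did AP-1 with 54.0% of 50. B boxes lay at the edge, at a median of 78.5 bp with 15.8% of 19 within 50 bp. When the windows were moved by 1 kb from the sites, CTCF matched in 2.74% and the E-box in 4.83%, which left differences of 12.8 points (10.1 to 15.8) and 5.70 points (3.28 to 8.40) with the sites. So the E-box was less frequent in the sites than in other accessible regions but more frequent than in their own flanks. Some E-box matches lay inside a CTCF match, as at chr11:36001492-36001498, and E-box matches apart from CTCF were not counted separately.

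**Figure D4:**
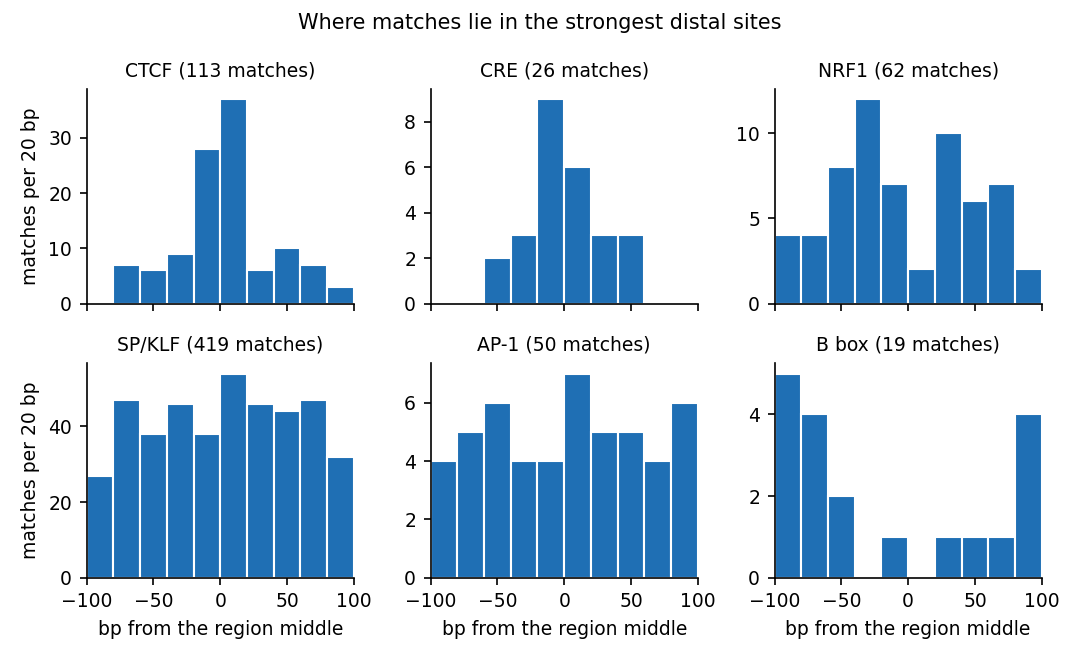
Number of exact matches per 20 bp (y axis) by distance of the match from the middle of the region (x axis, bp) for 6 motifs in the 693 unique sites. CTCF and CRE matches pile up at the middle, SP/KLF and AP-1 matches are spread over the window, and B box matches lie toward its edges.

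Footprints, the short protected stretches that the authors called inside accessible DNA, come from the same reads as the peak values and are given as a description. All 693 unique sites held a footprint in replicate 1 and 690 in replicate 2, with medians of 4 and 3 per site, against 90.3% and 76.4% of other shared distal regions. Of CTCF matches in the sites 94.7% lay in a footprint of replicate 1 (at least 50% of the match) and 89.4% in one of replicate 2. The shares were 85.5% and 87.1% for NRF1, 84.6% and 76.9% for CRE, 75.6% and 59.8% for the E-box and 63.2% and 53.9% for the GC box. Some of these E-box matches lay inside a CTCF match. An NRF1 stretch that matched on both strands was counted once per strand. AP-1 had 14.0% in each library and ETS 36% and 22%. Among the printed sites, the CTCF match of the Chd2 site and the CRE match of the Nacc2 site lay in a footprint in both libraries. The CRE match of the Mir132 site and the CTCF match of the Ccne1 site lay in a footprint of neither library. In other shared distal regions, whose values were lower, the CTCF shares were 81.5% and 64.8% and those of AP-1 9.64% and 4.501%.

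Transfer RNA genes were more frequent in the sites than in other shared distal regions. A tRNA gene of the RefSeq annotation overlapped 40 of the 693 sites, 5.77% (4.27 to 7.76), against 0.248% of other shared distal regions, a difference of 5.52 points (4.02 to 7.52). With 1 of the repeated sites, 42 of the 425 tRNA genes lay in a site, and 204 lay in a region found in both libraries. The 42 genes belong to 18 amino acids, with 6 each for arginine and leucine, 4 for threonine and 3 each for glutamic acid, histidine and tryptophan. The 425 genes were not counted by amino acid, so these counts do not show that any amino acid is favoured. The arginine tRNA site had 8.18 in replicate 1 and 7.80 in replicate 2, and the threonine tRNA site had 5.79 and 5.48. A leucine tRNA site at chr8:94704081-94704260 had 7.28 and 7.87, another at chr11:58302461-58302720 had 6.05 and 8.04, and a histidine tRNA site at chr2:122377361-122377620, with a CRE match, had 5.96 and 5.95. The values of tRNA sites were close in both libraries: their ratio of replicate 2 to replicate 1 had a median of 0.986 and quartiles of 0.925 and 1.096, against medians of 0.754 at noncoding starts and 0.823 at sites with no annotated start. Of the 97 tRNA regions below the threshold the median ratio was 0.957. Ratios rest on the values of the rule and have no test. The B box (GGTTCGANNCC) matched in 17 of the 40 windows and in none of the sites without a tRNA gene, 2.45% of all sites (1.54 to 3.89) against 0.143%, and 28 of the 40 were CpG-rich. With a stricter limit on repeated sequence, 10% of the words of 31 bases in place of 25%, the share with a tRNA gene was 2.42% against 0.0442%, a difference of 2.38 points (1.45 to 3.85), and with replicate 2 left out the difference was 2.78 points (2.09 to 3.67). BLAST at 50% of the region's length found a similar copy of 10 of the 693 unique sites in the assembled chromosomes, 1 of them with a tRNA gene; a copy of the short tRNA gene alone would not be counted at that length. The part of read placement between such copies was not tested.

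**Figure D5:**
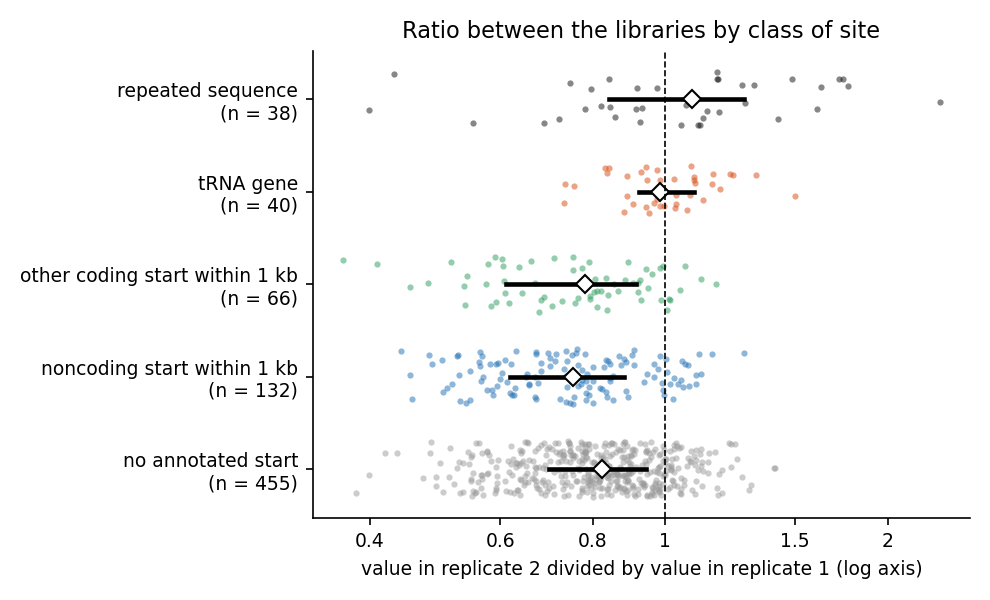
Value in replicate 2 divided by value in replicate 1 (x axis, log axis) for every site by class (y axis); diamonds are medians, thick lines run from the first to the third quartile, and the vertical spread of points carries no information. The tRNA sites centre on 0.986 and the repeated sites on 1.09, while sites at noncoding starts centre on 0.754.

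A further part of the sites were starts of noncoding genes. Of the 693, 140 (20.2%, 17.4 to 23.3) lay within 1 kb of a GENCODE start of a gene that is not protein-coding, against 5.09% of other shared distal regions, a difference of 15.1 points (12.3 to 18.3), and in 83 the start lay inside the region. By type 64 were lincRNA, 29 processed transcript and 19 antisense genes, and 7 were microRNA genes. After the sites with a tRNA gene were set aside, 132 were of this class. A further 66 (9.52%, against 4.65%) lay within 1 kb of a start that only a noncoding transcript of a protein-coding gene or a RefSeq mRNA gives. That left 455, or 65.7% (62.0 to 69.1), with no annotated start or tRNA gene, against 90.0%. Counted whatever their other annotation, 84 sites (12.1%, 9.90 to 14.8) lay by such a further start of a coding gene. The share of other shared distal regions was 5.15%, a difference of 6.97 points (4.74 to 9.62). A small RNA gene other than tRNA overlapped 5 sites (0.722%, 0.309 to 1.68) against 0.158%. The named sites of this paragraph were picked after their values were seen. The region at the start of Mir22hg, the host of miR-22, at chr11:75461361-75461660, had 15.2 in replicate 1 and 6.72 in replicate 2, and that of Snhg8, a host of small nucleolar RNA, at chr3:123508341-123508600, had 9.19 and 6.17. The region at the start of Ftx, a long RNA gene near Xist, at chrX:103622381-103622660, had 9.21 and 4.86. At Malat1, an abundant nuclear RNA, a region 849 bp from a start at chr19:5803521-5803780 had 8.67 and 6.20.

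Of the 7 unique sites at microRNA starts 3 had a CRE match and 4 did not. The 3 lie at genes known from neurons and were picked after their values and motifs were seen. The Mir132 region had 5.39 in replicate 1 and 4.03 in replicate 2 and also matched EGR and the GC box. At chr2:180892881-180893220, 820 bp from Mir124a-3, the values were 3.32 and 3.69, and at chr7:79504761-79505000, 264 bp from Mir9-3, they were 4.93 and 3.06. These belong to the microRNA families miR-124 and miR-9 of neurons and their progenitors. Over the whole class of noncoding starts 8 of 132 sites (6.06%) had a CRE match, against 19 of 1982 (0.959%) other regions of the class. The highest site with a CRE match, at chr6:86472221-86472520 in an exon of C87436, had 9.66 and 9.45.

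By position in protein-coding genes, the sites were more often between genes and less often in introns. Of the 693, 433 (62.5%, 58.8 to 66.0) were intergenic against 51.4% (difference 11.1 points, 7.38 to 14.6) and 175 (25.3%, 22.2 to 28.6) were intronic against 40.5% (-15.2 points, -18.4 to -11.8). Exons held 85 (12.3%, 10.03 to 14.9) against 8.11%, a difference of 4.16 points (1.91 to 6.83). Their median distance to a protein-coding TSS was 14.6 kb, against 36.4 kb, and their median width 240 bp, against 220 bp. Of the 731 sites 89 lay within 10 kb of another site. The farthest unique sites were chr1:122357121-122357300, 789 kb from Ddx18, with 3.45 in replicate 1 and 3.55 in replicate 2, and chr13:26155021-26155280, 615 kb from Hdgfl1, with 3.64 and 3.65. Among the widest were 860 bp at chr6:128838321-128839180 near Klrb1b, with 3.14 and 3.76, and 840 bp at chr8:4677661-4678500 near Zfp958, with 9.16 and 5.36. By chromosome the sites made up between 1.17% (chromosome 19) and 2.95% (chromosome 11) of the distal regions found in both libraries, leaving out Y, where there was no site among 19.

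Enhancers of the VISTA collection, tested in transgenic mouse embryos and listed in the RefSeq annotation, overlapped 12 sites, 1.73% (0.993 to 3.002), against 0.463% of other shared distal regions, a difference of 1.27 points (0.527 to 2.54). The tissues in which these were active are not used here. The highest, chr8:126666461-126666760, 72.5 kb from Irf2bp2, had 8.83 in replicate 1 and 7.24 in replicate 2. An element 18.3 kb from Fos, at chr12:85455121-85455620, had 7.97 and 4.396, and the Fosb site, 9.99 kb from Fosb, had 5.98 and 4.39. The Tob1 site, 50.7 kb from that antiproliferative gene, had 8.52 and 4.19.

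Several sites lay nearest to genes of glutamatergic neurons and to genes that neurons induce on activity. In the glutamatergic list, 5 of 14 genes were nearest to 8 sites, 1.09% of the 731, against 0.261% of other distal regions in both libraries. The region 1469 bp from Slc17a7, the vesicular glutamate transporter VGLUT1, had 5.28 in replicate 1 and 5.12 in replicate 2. Around Mef2c, a factor of neuronal differentiation, there were 3 sites, at chr13:83715061-83715280 with 6.59 and 4.90, at chr13:83744981-83745320 with 6.20 and 4.16 and at chr13:83739761-83740100 with 3.76 and 3.20. A site inside Zbtb20, a regulator of hippocampal identity, at chr16:42875381-42875900 had 11.2 and 6.53. It overlapped the start of the noncoding gene 4932412D23Rik. It also lay within 1 kb of a Zbtb20 start that only a noncoding transcript or a RefSeq mRNA gives. Camk2a, the kinase of synaptic plasticity, had 2 sites in its intron with 3.23 and 3.05, and 3.40 and 3.03, and an intron of the gene for the glutamate receptor subunit Grin2b had 4.21 and 3.11. In the activity-regulated list, 6 of 17 genes were nearest to 8 sites, 1.09% against 0.191%. Beyond the Fos and Fosb sites above, a second region near Fos, 12.1 kb away, had 4.56 and 4.26, 2 regions near Junb had 6.11 and 4.90 and 5.87 and 3.90, a region 7.73 kb from Nr4a1 had 7.57 and 4.15, a region 1533 bp from Nr4a3 had 5.72 and 3.66, and a region 11.5 kb from Npas4 had 6.92 and 3.63. The Junb region with 6.11 and 4.90 lay in an exon of Junb, within 1 kb of a further Junb start of that kind. The nearest gene need not be the one a site acts on.

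Other lists had 2 sites or fewer. Of 10 oligodendrocyte genes 1, the myelin gene Mog, was nearest to a site, with 4.85 in replicate 1 and 3.07 in replicate 2 at chr17:37028641-37029100. That 1 site is 0.137% of the 731, near the 0.0929% of other distal regions. The interneuron, astrocyte, microglia, endothelial, hepatocyte and Hox lists had 0. Of other distal regions 0.0176% to 0.196% were nearest to a gene of the 5 cell-type lists at 0. In the list of synaptic adhesion and scaffold genes 2 of 18 had a site, 0.274% of the 731 against 0.691%: an intron of Dlg4, the PSD-95 scaffold gene, had 8.52 and 5.72, and a region 46.2 kb from Lsamp, a cell adhesion gene, had 3.40 and 3.67 and a CTCF match. Of the imprinted genes, introns of Peg3 and Peg10 held a site each, with 6.28 and 3.98 and with 6.89 and 3.79, and these 2 sites are 0.274% of the 731, against 0.153% of other distal regions.

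The 38 sites of repeated sequence differed from the unique ones in their values. Their medians were 7.07 in replicate 1 and 7.30 in replicate 2, and 21 of the 38 were higher in replicate 2, with a median ratio of 1.09. Ranked by the lower of both libraries' values, the highest was chr17:39846781-39846920, overlapping an annotated ribosomal RNA gene beside the noncoding gene Gm42418, with 28.3 in replicate 1 and 48.6 in replicate 2. A region at chr3:5860361-5860530 had 19.2 and 27.3, one in an exon of Lars2 at chr9:123461881-123462140 had 17.1 and 25.4, one 21.5 kb from Igf2bp3 at chr6:49236421-49236620 had 16.5 and 21.2, and one in an intron of Il31ra at chr13:112578161-112578320 had 14.3 and 17.0. All 5 were higher in replicate 2, but the highest value in replicate 1 was at a site that was lower in replicate 2, chr9:3002021-3002220, with 28.9 and 11.5. That site, picked after its values were seen, had the lowest ratio, and ratios ran from 0.400 to 2.35, the highest at chr17:3081681-3082040, a wider range than among unique sites. BLAST found a second similar copy in the assembled chromosomes for 36 of the 38. The part of sequence copy number in these values was not tested.

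At the threshold, the lowest values inside were 3.502 in replicate 1 and 3.003 in replicate 2 in an intron of Mid1 (repeated sequence), 6.19 and 3.003 at the start of Snhg5, and 4.70 and 3.003 at chr9:63856421-63856640, 98.4 kb from Smad3. Just outside were 2.998 and 3.72 at a glutamic acid tRNA gene, 5.29 and 2.99 at a region 15.6 kb from Hspb1, and 4.62 and 2.99 at a region 531 kb from Pdcd6ip. The smallest ratios of replicate 2 to replicate 1 were at chr8:69716401-69717220 near Zfp869, with 10.6 and 3.89, at chr7:44405561-44406060 near Syt3, a synaptotagmin gene, with 8.83 and 3.38, and in an exon of Bcat2, an enzyme of branched amino acid breakdown, with 9.93 and 3.96. The Zfp869 region lay within 1 kb of a Zfp869 start that only a noncoding transcript or a RefSeq mRNA gives.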

How the data were processed

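DNase-seq peak, footprint and base lists of 2 libraries on mm10 (GRCm38), per the labels, were used as deposited. For the aligner, callers and versions: not given in the sources used here. Peak values are the authors' deposited signal, whose scale is not stated. Bases with an FDR under 0.05, taken as q-values, are listed in the authors' base files. The deposited footprint lists carry a p-value-like threshold of 0.01 on every line, which was not used beyond footprint positions.

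Intervals that overlapped by 1 bp or touched were merged. Coding starts were those of protein-coding transcripts of protein-coding genes in GENCODE M21. tRNA genes and VISTA enhancers came from the RefSeq annotation of GRCm38.p6, whose chromosomes also gave the sequence. That assembly is of C57BL/6J, and the treatment of CAST/EiJ alleles is not stated. A site was called repeated where 25% or more of its 31-base words occurred more than once. Motifs (20) were exact letters on both strands of the middle 200 bp. Shares carry 95% Wilson intervals and differences 95% Newcombe intervals, both for counting error only.

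Members, motifs and gene lists (12) were chosen with earlier results of these data known. Named sites were the 12 highest unique and 5 highest repeated by the lower value, 3 on each side of the threshold, the top 2 per motif, the 3 widest, farthest and most unequal, and up to 3 per gene list. Tied to no such rule were the microRNA, VISTA and noncoding examples and the further sites of the Ptma, Fos, Mef2c, Camk2a, Grin2b, Nr4a1, Nr4a3, Npas4 and tRNA groups, which were picked after their values were seen. Alternatives (20) were the shorter lists, other thresholds, distances, start definitions, repeat limits and windows, and each library left out; 3 of them were added after seeing the data. Procedures were tested on simulated data. Python 3.11.15, NumPy 2.4.6, pandas 2.3.3, numba 0.67.0, Matplotlib 3.10.9 and BLAST 2.17.0 were used.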

Additional observations from a re-analysis of the deposited data

How the results depend on the processing

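The number of sites was 2638 at a value of 2, 138 at 5 and 836 and 1792 with replicate 1 or replicate 2 left out, against 731, and between 536 and 836 under the other alternatives. Sites of repeated sequence numbered 77 at a value of 2, 25 at 5, 25 with starts of every gene type, 70 at a repeat limit of 10% and 25 at 50%, against 38, and 47 and 54 with a library left out. The CpG-rich, SP/KLF, tRNA, noncoding-start and intergenic differences kept their sign and an interval off 0 under every alternative run for them, at 21.1 to 66.0, 15.5 to 56.5, 2.38 to 9.42, 7.25 to 23.9 and 3.20 to 14.8 percentage points. The CTCF difference of 1.60 points did not: it was -6.96 at a value of 5, and its interval lay above 0 at a value of 2 (7.22), with starts of every gene type (3.73), with 1 mismatch allowed (4.72), against windows moved by 1 kb (12.8), and with a library left out (4.20 to 5.73). It did so too with RefSeq mRNA starts added (2.86) and among sites with no annotated start or tRNA gene (5.59), both chosen after seeing the data. Other reversals were RFX (-0.380) and ZNF143 (-0.0151) at a value of 5, ZNF143 (-0.00767) with a window of 100 bp, AP-1 (1.80) and the E-box (5.70) against windows moved by 1 kb, and the B box (-0.0114) without annotated starts or tRNA genes; the causes were not tested. No paired analysis was possible because there was 1 group. Depth per library is not stated, and values rest on the authors' scaling.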
